A study of Homo sapiens with 8 samples.

Results

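The 49 genes described here encode proteins that hepatocytes secrete into blood plasma. They were chosen by gene symbol from a list of such proteins, each symbol matched 1 Ensembl gene ID, and together they make up 49 of the 58302 IDs counted. The list was chosen with earlier results of these data known. Its shares, set below against those of all tested genes, therefore describe these data and are no independent support. Their RNA was measured by strand-specific, rRNA-depleted RNA-seq in Caco-2/15 cells, a line from a human colon carcinoma whose cells differentiate toward enterocytes after reaching confluence. The 4 groups, with 2 libraries each, were Z1flag cells 7 days after confluence (Z1flag Pc), Z2flag cells 7 days after confluence (Z2flag Pc), subconfluent Z1flag cells (Z1flag Sc) and subconfluent Z2flag cells (Z2flag Sc). Z1flag cells were edited with CRISPR-Cas9 to carry a Flag epitope at the 3′ end of H2AFZ, the gene for the histone variant H2A.Z.1, and Z2flag cells carry it at the 3′ end of H2AFV, the gene for H2A.Z.2. Both edits are heterozygous, so every library came from cells with tagged and untagged alleles. The labels do not say whether each population descends from 1 clone. The study asked what each H2A.Z isoform contributes to expression during enterocyte-like differentiation, and the comparisons below are Pc against Sc within each line, and the difference between those changes.

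Plasma proteins are made mainly by hepatocytes, which release them through the secretory pathway. Serpins trap proteases, the coagulation factors and fibrinogen form the clot, complement proteins mark and lyse microbes, and carriers such as transferrin, transthyretin and haemopexin move iron, thyroid hormone, retinol and haem. Their genes are classical targets of the liver-enriched factors HNF1, HNF4, C/EBP and FOXA, several of which are also present in intestinal epithelium, and Caco-2 cells have long been known to make some of these proteins.

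The libraries held 17063826 to 40881682 counts assigned to genes. The share of reads outside any annotated feature (no-feature share) was 31.4% in Z1flag Pc replicate 1 and 32.0% in Z1flag Sc replicate 1, against 20.6% to 24.5% in the other 6 libraries. H2AZ1 (H2AFZ) stood at 108 and 197 CPM in Z1flag Pc and 191 and 187 CPM in Z2flag Pc, against 292 and 341 CPM in Z1flag Sc and 352 and 347 CPM in Z2flag Sc. These counts sum over all alleles, tagged or not. Levels are given as CPM, gene counts brought to a common library size by TMM scaling. The labels mark the 2 libraries of each group Exp1 and Exp2, here called replicate 1 and replicate 2. They do not say whether these were separate cultures, so the p-values measure the spread between these samples.

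After confluence most of the plasma protein genes rose in Z1flag cells, AHSG, SERPINA1 and AGT among the highest, and a smaller number was called in Z2flag cells, while no gene was called for the difference between the lines. Of the 49 genes, 45 passed the filter on low counts and were tested. In Z1flag cells 39 of the 45 were higher in Pc than in Sc and 0 were lower (edgeR quasi-likelihood test, Benjamini-Hochberg adjusted p under 0.05), while 21.3% of all 18240 tested genes were called higher and 19.1% lower. In Z2flag cells 24 were higher and 0 lower, against 18.3% of all tested genes called higher and 19.3% lower. The gap between 39 and 24 depended on fitting the lines together. With each line fitted alone, 36 genes were called higher in Z1flag and 31 in Z2flag cells. Of all genes called, 52.7% were higher in Z1flag and 48.6% in Z2flag cells, and with upper-quartile scaling these shares were 67.1% and 60.4%, with 40 and 26 of the 45 genes called higher. The filter passes a gene that is high in 1 group only, so these shares describe the tested genes and not all 49. All 24 were among the 39 of Z1flag cells, and 14.4% of all tested genes were called higher in both lines. The median log2 fold change, Pc over Sc, was 3.02 in Z1flag and 1.85 in Z2flag cells over the 45 genes, against 0.04 and -0.05 over all tested genes. Both Pc libraries lay above both Sc libraries for 41 of the 45 genes in Z1flag cells (35.1% of all tested genes) and for 36 in Z2flag cells (36.3%). In bulk RNA, fewer cells of a kind and less RNA per cell cannot be told apart.

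In the main fit the genes not called in either line were SERPING1, FGA, F7, PROS1, C4BPB and HP. F7 was called higher in Z1flag cells with DESeq2, upper-quartile scaling, no filter, a CPM filter, a shared replicate block or the Z1flag libraries alone. The 4 genes not tested were SERPINA3, SERPINA7 and ITIH4, with few counts in every library, and PLG. PLG, the plasminogen gene, had 0 counts in all 8 libraries, which over their summed depth allows up to 0.0146 CPM for counting error only.

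**Figure D1:**
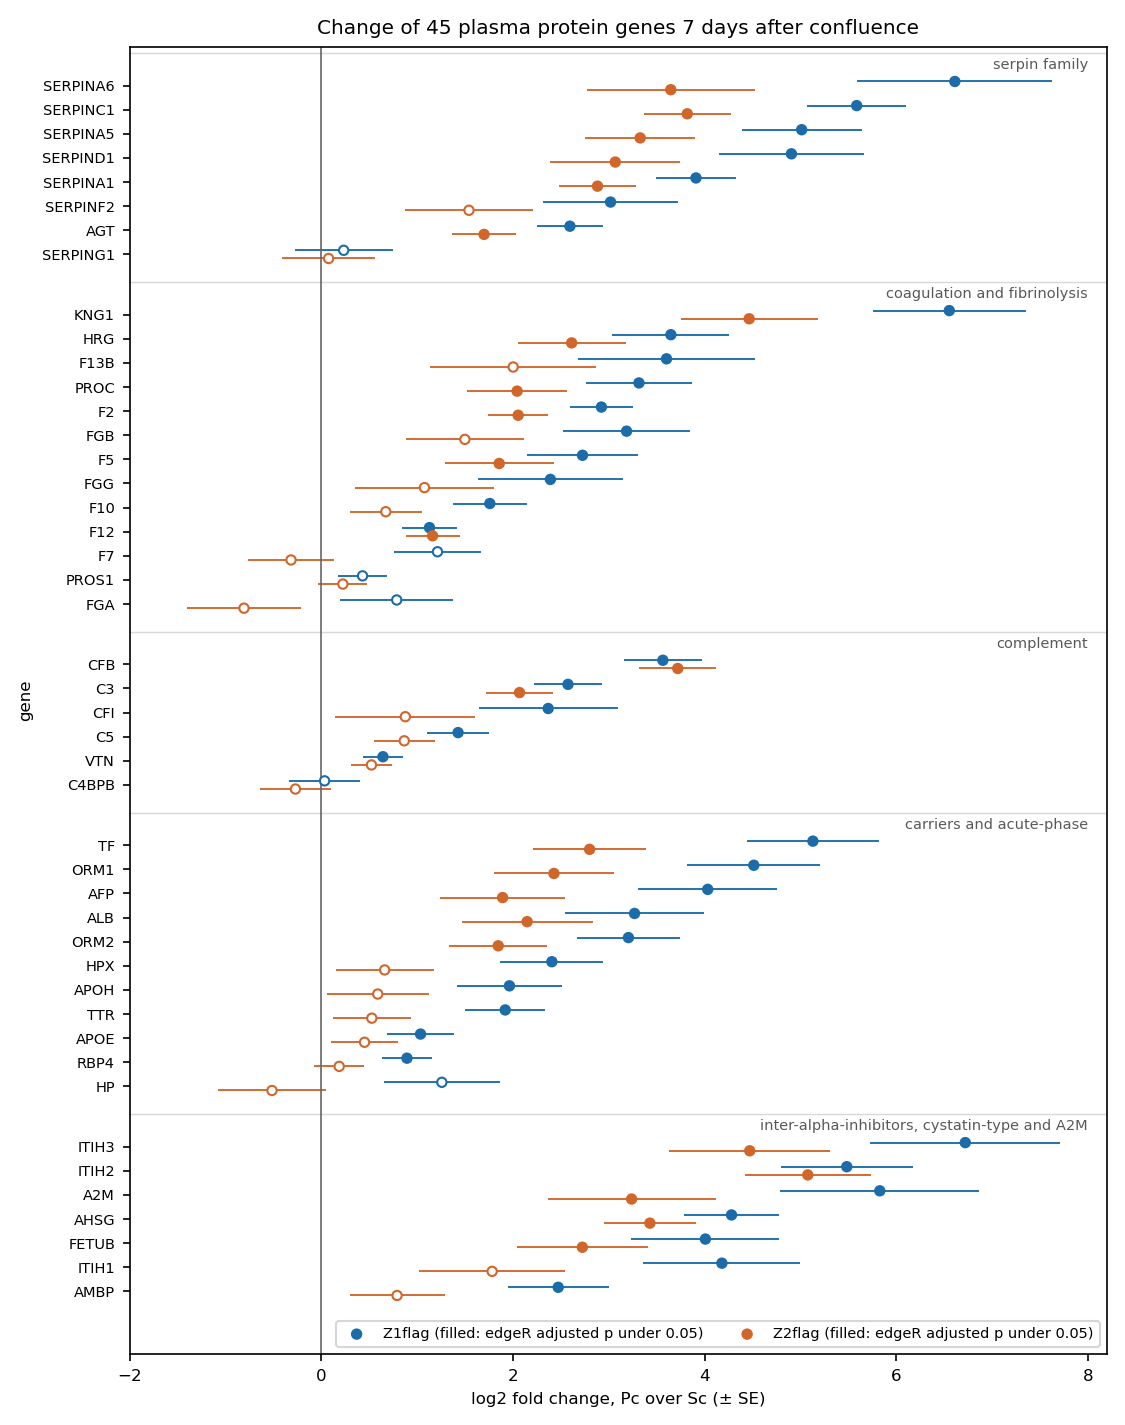
Log2 fold change, Pc over Sc, with its SE for each of the 45 tested genes, grouped by role, in Z1flag cells (blue) and Z2flag cells (orange), with filled points where edgeR's adjusted p was under 0.05. The points run up to 6.72 in Z1flag and 5.08 in Z2flag cells, and 39 are filled in Z1flag against 24 in Z2flag cells.

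The summed level of the 49 genes was 10921 and 10544 CPM in Z1flag Pc and 7043 and 11095 CPM in Z2flag Pc, against 1552 and 2664 CPM in Z1flag Sc and 3129 and 2786 CPM in Z2flag Sc. Every Pc library was above every Sc library. AHSG and SERPINA1 together made up 41.7% to 52.3% of the sum in the Pc libraries, against 11% to 17.2% in the Sc libraries, where VTN and APOE had the largest and the next largest share. Per kilobase of exon, the order of mean levels in Pc was AHSG (1130 CPM per kb), SERPINA1 (418), VTN (391), APOE (353) and AGT (254). In Sc it was VTN (261 CPM per kb), APOE (214), RBP4 (129), AHSG (80.6) and AGT (57.8), with SERPINA1 the seventh at 40.5. TF stands low on this scale, with annotated exons that add up to 26.2 kb.

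**Figure D2:**
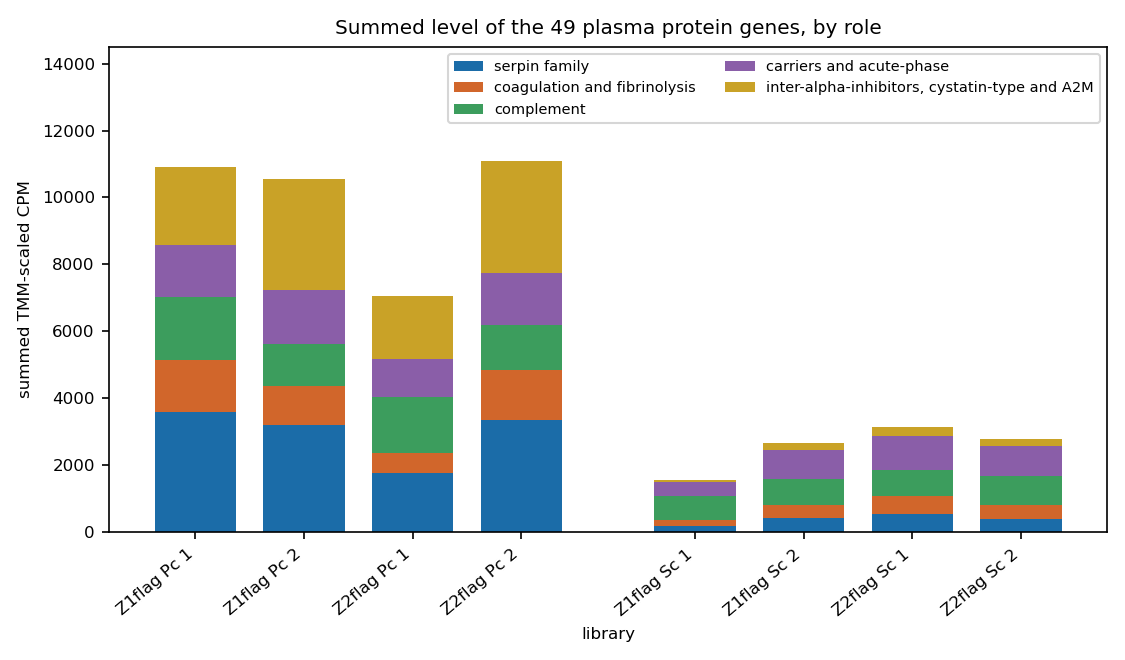
Summed CPM of the 49 genes in each library, stacked by role, with the 4 Pc libraries on the left and the 4 Sc libraries on the right. The Pc bars reach 7043 to 11095 CPM and the Sc bars 1552 to 3129 CPM, and the serpins and the group with AHSG make up most of the difference.

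The libraries of 1 group did not sit together for these genes. Z1flag Sc replicate 1 was the lowest of the 4 Sc libraries for 37 of the 45 genes (43.2% of all tested genes) and Z2flag Sc replicate 1 the highest for 34 (33.1%). Z1flag Pc replicate 1 was the highest of the 4 Pc libraries for 31 (36.4%) and Z2flag Pc replicate 1 the lowest for 29 (32.0%). The median deviation from the mean of the 4 libraries of the same state, in log2 CPM, was 0.70 in Z1flag Pc replicate 1 and -0.59 in Z2flag Pc replicate 1, and it was -0.87 in Z1flag Sc replicate 1 and 0.58 in Z2flag Sc replicate 1. Over all tested genes these 4 medians lay between -0.05 and 0.04. Z1flag Pc replicate 1 and Z1flag Sc replicate 1 are also the 2 libraries of highest no-feature share, and the part of that share in the result was not tested. Without those 2 libraries, an alternative chosen after seeing the data, 24 of the 39 genes kept their call in Z1flag cells, where 1 Pc library was then set against 1 Sc library and assumed to vary like the other groups, and 31 genes were called higher in Z2flag cells, the 24 and 7 more.

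**Figure D3:**
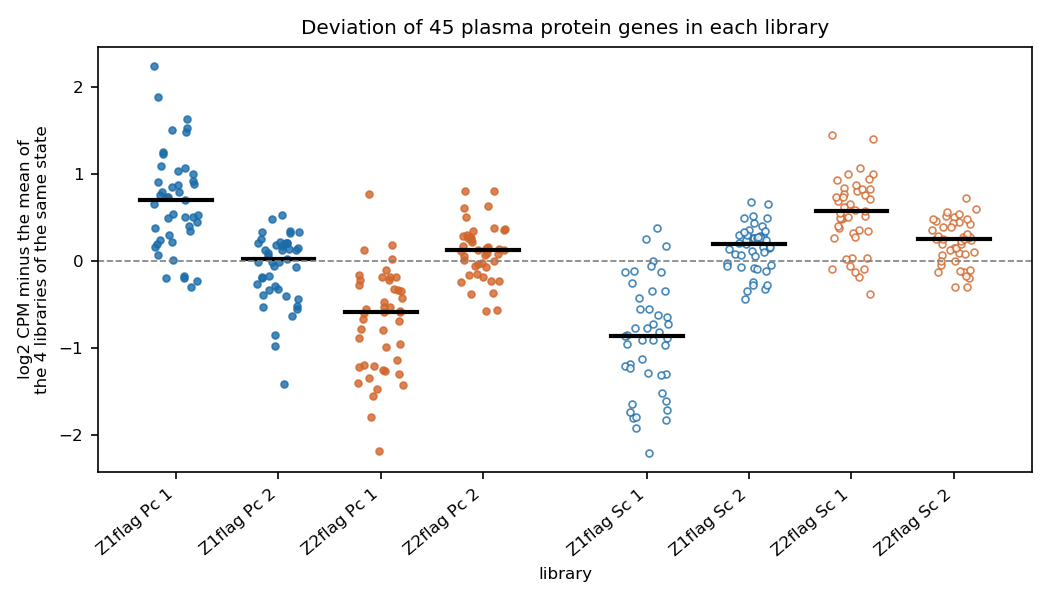
Each point is 1 of the 45 tested genes, as its log2 CPM in a library minus the mean of the 4 libraries of the same state, with the median as a black bar, Z1flag in blue and Z2flag in orange, Pc filled and Sc open. The medians are 0.70 in Z1flag Pc replicate 1, -0.59 in Z2flag Pc replicate 1 and -0.87 in Z1flag Sc replicate 1, and the second replicates lie between 0.02 and 0.25.

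The counts also depended on single libraries. In Z2flag cells 15 genes were called higher without Z2flag Pc replicate 2, 14 without Z2flag Sc replicate 1 and 12 without Z2flag Sc replicate 2. In Z1flag cells the lowest count was 28, without Z1flag Sc replicate 1. Over all alternatives tried, 18 genes kept their call in Z1flag cells: SERPINA1, SERPINA5, SERPINC1, AGT, F2, PROC, KNG1, HRG, C3, CFB, TF, ORM1, ORM2, AMBP, ITIH2, ITIH3, AHSG and A2M. In Z2flag cells 10 did: SERPINA1, SERPINA5, SERPINC1, AGT, F2, C3, CFB, ITIH2, ITIH3 and AHSG. In Z1flag cells, leaving out both high no-feature libraries ended the calls of ALB, APOH, C5, CFI, F10, F13B, FETUB, FGB, FGG, HPX, ITIH1, RBP4, SERPINF2, TTR and VTN. With no filter on low counts AFP, ALB, APOH, FGB, FGG, SERPINA6, SERPIND1, SERPINF2 and VTN were not called, with a replicate block within line ALB, APOH, FGB, FGG and VTN, and with the Z1flag libraries alone APOE, RBP4 and VTN. F13B was not tested in the fit of the Z1flag libraries alone. In Z2flag cells AFP and ALB lost their calls with DESeq2, with no filter and with either replicate block, SERPINA6 and SERPIND1 with no filter and with the block within line, and KNG1 with no filter. Calls were also gained in Z2flag cells, that of C5 with DESeq2, RLE or upper-quartile scaling, no filter or a CPM filter. With the Z2flag libraries alone C5, APOE, F13B, FGB, SERPINF2, TTR and VTN were called higher as well.

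The promoters of the genes were searched for the binding motifs of liver-enriched factors. RefSeq promoter windows on GRCh38.p14 were at hand for 40 of the 49 genes, and the 250 bases before each listed start were read on both strands. The HNF1 palindrome, 13 bases long and searched with up to 2 mismatches, was found before at least 1 start of 11 of the 40 genes (27.5%) and of 1.53% of all 27305 genes in the table. These were AFP, ALB, APOH, C5, CFI, F13B, F2, FGA, FGB, PLG and SERPINA7. Of the 11 genes, 9 were tested, 8 rose in Z1flag cells and 3 (AFP, ALB and F2) also in Z2flag cells, while PLG had no count at all. Of all 45 tested members, with or without a match, 39 (86.7%) rose in Z1flag and 24 (53.3%) in Z2flag cells. A link between the match and the rise was not tested. The sequences are shown because they hold the matches of genes that rose and, as a contrast, of PLG and FGA, which did not, and capitals mark the 13-base match, mismatches included. Each is written 5′ to 3′ on the gene's strand, with 30 bases on either side where no annotated exon lies.
C5 (chr9:121050306-121050378, minus strand, match at -73 to -61 from the start): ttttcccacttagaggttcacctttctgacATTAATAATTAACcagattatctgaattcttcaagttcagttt
F13B (chr1:197067281-197067353, minus strand, match at -63 to -51): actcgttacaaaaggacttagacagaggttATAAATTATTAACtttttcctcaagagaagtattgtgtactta
APOH (chr17:66229513-66229585, minus strand, match at -140 to -128): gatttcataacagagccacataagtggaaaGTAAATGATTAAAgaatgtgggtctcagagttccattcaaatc
AFP (chr4:73436059-73436131, plus strand, match at -132 to -120): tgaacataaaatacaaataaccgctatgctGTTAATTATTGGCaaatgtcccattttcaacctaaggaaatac
PLG (chr6:160702161-160702233, plus strand, match at -53 to -41): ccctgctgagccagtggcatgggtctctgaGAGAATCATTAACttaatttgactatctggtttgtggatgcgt
For genes whose windows touch exons of GENCODE v29, only the 13 bases of the match are given.
ALB (chr4:73404226-73404238, plus strand, match at -61 to -49): GTTAATAATCTAC
F2 (chr11:46719172-46719184, plus strand, match at -41 to -29): GTTCAACATTAAC
FGB (chr4:154562922-154562934, plus strand, match at -58 to -46): ATTAAATATTAAC
FGA (chr4:154590789-154590801, minus strand, match at -59 to -47): GCCAATGATTAAC
C5 differed from the palindrome at 1 base and the others at 2. FGB and FGA, neighbouring fibrinogen genes, are set side by side because FGB was called higher in Z1flag cells and FGA in neither line. Their matches lie at nearly the same distance from the starts used here. From another listed start of FGB the same match lies at -89 to -77.

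Other motifs were searched in the same windows. The HNF4 motif (CAAAGTCCA or CAAAGTTCA) stood before 3 of the 40 genes, AHSG, SERPINA7 and SERPIND1 (7.5%, against 0.714% of all genes), and the C/EBP motif (TTGCNNAA) before 13 (32.5%, against 11%). The FOXA motif (TGTTTAC or TGTTTGC) was found for 10 genes (25.0%, against 7.41%), the STAT motif (TTCNNNGAA) for 11 (27.5%, against 8.09%) and the TATA box (TATAAA) for 9 (22.5%, against 13.05%). A match describes letters in a window and says nothing of binding. SERPINC1, SERPING1, SERPINF2, C3, TTR, HP, ORM2, ITIH2 and A2M were not searched.

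Serpins inhibit proteases by a conformational trap, and some family members have become hormone carriers or precursors. Of the 8 tested members of the family list, 7 rose in Z1flag and 6 in Z2flag cells, with medians of 4.41 and 2.98 on the log2 scale. SERPINA1 (chr14:94376747-94390693, minus strand, GRCh38), which encodes alpha-1-antitrypsin, the inhibitor of neutrophil elastase, stood at 2303 and 2257 CPM in Z1flag Pc and 1249 and 2379 CPM in Z2flag Pc, against 98.3 and 205 CPM in Z1flag Sc and 286 and 206 CPM in Z2flag Sc. All 4 Pc libraries were above all 4 Sc libraries. Its log2 fold change was 3.91 (SE 0.42, edgeR adjusted p = 0.000232) in Z1flag cells and 2.88 (SE 0.40, adjusted p = 0.000738) in Z2flag cells. SERPINC1 (chr1:173903804-173917378, minus strand), the gene of antithrombin, which inhibits thrombin and factor Xa, was at 37.7 and 18 CPM in Z1flag Pc and 15.7 and 24.9 CPM in Z2flag Pc, against 0.451 and 0.687 CPM in Z1flag Sc and 1.83 and 1.01 CPM in Z2flag Sc. It was below 2 CPM in every Sc library and the groups did not overlap. Its log2 fold change was 5.59 (SE 0.52, edgeR adjusted p = 0.00014) in Z1flag cells and 3.82 (SE 0.45, adjusted p = 0.000407) in Z2flag cells.

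AGT (chr1:230702523-230714297, minus strand) encodes angiotensinogen, the substrate of renin. Its levels were 694 and 619.9 CPM in Z1flag Pc and 376 and 639 CPM in Z2flag Pc, against 76.4 and 141 CPM in Z1flag Sc and 179.6 and 133 CPM in Z2flag Sc, so that it was already well expressed before confluence. It rose by 2.59 (SE 0.35, edgeR adjusted p = 0.000545) in Z1flag and by 1.70 (SE 0.34, adjusted p = 0.0038) in Z2flag cells on the log2 scale. SERPINF2 (chr17:1742836-1755268, plus strand), the gene of alpha-2-antiplasmin, the plasmin inhibitor, was at 305 and 203 CPM in Z1flag Pc and 71.4 and 217 CPM in Z2flag Pc, against 9.46 and 53.1 CPM in Z1flag Sc and 53.5 and 45.5 CPM in Z2flag Sc. Z1flag Sc replicate 1 was far below the other Sc libraries and Z2flag Pc replicate 1 far below the other Pc libraries. The log2 fold change was 3.02 (SE 0.71, edgeR adjusted p = 0.00792) in Z1flag cells, a call lost without Z1flag Pc replicate 1 (adjusted p = 0.0697), and 1.54 (SE 0.67, adjusted p = 0.0943) in Z2flag cells.

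SERPINA6, the cortisol-binding globulin gene, had the largest Z1flag change of the family, 6.61 (SE 1.02, edgeR adjusted p = 0.00104), against 3.65 (SE 0.88, adjusted p = 0.00967) in Z2flag cells. It spread widely among Pc libraries, at 112 and 21.1 CPM in Z1flag and 5.13 and 25.9 CPM in Z2flag cells. The Z2flag call of SERPINA6 was lost without Z2flag Pc replicate 2, Z2flag Sc replicate 1 or Z2flag Sc replicate 2 (adjusted p = 0.0802 to 0.132). SERPINA5, the protein C inhibitor gene, changed by 5.01 in Z1flag and 3.33 in Z2flag cells (edgeR adjusted p = 0.000403 and 0.00197), and SERPIND1, the heparin cofactor II gene, by 4.91 and 3.07 (adjusted p = 0.00104 and 0.00655). The Z2flag call of SERPIND1 was lost without Z2flag Pc replicate 2, Z2flag Sc replicate 1 or Z2flag Sc replicate 2 (adjusted p = 0.0558 to 0.115). SERPING1, the C1 inhibitor gene, stayed below 2 CPM, at 0.983 and 0.765 CPM in Z1flag Pc and 1.65 and 0.601 CPM in Z2flag Pc, against 0.811 and 0.687 CPM in Z1flag Sc and 1.16 and 0.985 CPM in Z2flag Sc, and was called in neither line. SERPINA3, which shares 31.8% of its exon bases with a read-through gene on the same strand, and SERPINA7, the thyroxine-binding globulin gene, reached at most 0.361 and 0.0378 CPM in any library.

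Of the 13 tested coagulation and fibrinolysis genes, 10 rose in Z1flag and 6 in Z2flag cells, with medians of 2.73 and 1.5 on the log2 scale. F2 (chr11:46719180-46739506, plus strand), the prothrombin gene, was at 277 and 342 CPM in Z1flag Pc and 276 and 370.2 CPM in Z2flag Pc, against 27.9 and 53.5 CPM in Z1flag Sc and 89.1 and 66.4 CPM in Z2flag Sc. The Pc libraries were close together and above every Sc library. F2 rose by 2.92 (SE 0.33, edgeR adjusted p = 0.000275) in Z1flag and by 2.05 (SE 0.32, adjusted p = 0.00118) in Z2flag cells on the log2 scale. KNG1 (chr3:186717276-186744410, plus strand) encodes kininogen, the precursor of bradykinin and a cofactor of the contact system. It stood at 373 and 157 CPM in Z1flag Pc and 58.6 and 184 CPM in Z2flag Pc, against 0.991 and 4.54 CPM in Z1flag Sc and 6.16 and 4.81 CPM in Z2flag Sc, without overlap. Its log2 fold change was 6.55 (SE 0.80, edgeR adjusted p = 0.000381) in Z1flag cells and 4.47 (SE 0.71, adjusted p = 0.00138) in Z2flag cells. With ITIH3 and ITIH2 it had the largest mean change over both lines among the members with a mean of at least 1 CPM. HRG-AS1, an antisense gene, overlaps 15.4% of the KNG1 exon bases, but its mean count was 0.0171 of that of KNG1.

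The 3 fibrinogen chain genes lie within 1 cluster on chromosome 4, in the order FGB, FGA and FGG, 12039 and 13367 bases apart, and their products assemble into 1 hexamer. FGG, the gamma chain gene (chr4:154604134-154612967, minus strand), was at 521 and 416 CPM in Z1flag Pc and 123 and 631 CPM in Z2flag Pc, against 31.2 and 147 CPM in Z1flag Sc and 209.8 and 147 CPM in Z2flag Sc. The Z1flag groups did not overlap, while Z2flag Pc replicate 1 was below both Z2flag Sc libraries. FGG rose by 2.39 (SE 0.76, edgeR adjusted p = 0.0297) in Z1flag cells, a call lost without Z1flag Pc replicate 1, Z1flag Pc replicate 2, Z1flag Sc replicate 1, Z2flag Sc replicate 1 or Z2flag Sc replicate 2 (adjusted p = 0.0769 to 0.155), and its value in Z2flag cells was 1.08 (SE 0.73, adjusted p = 0.265), or -0.45 without Z2flag Pc replicate 2. FGB, the beta chain gene (chr4:154562956-154571086, plus strand), was at 73.3 and 28.5 CPM in Z1flag Pc and 17.8 and 43.4 CPM in Z2flag Pc, against 2.21 and 8.89 CPM in Z1flag Sc and 11.8 and 9.85 CPM in Z2flag Sc, and all Pc libraries were above all Sc libraries. It rose by 3.19 (SE 0.66, edgeR adjusted p = 0.00433) in Z1flag cells, and its Z2flag value was 1.5 (SE 0.61, adjusted p = 0.0787). The Z1flag call of FGB was lost with no filter on low counts, with a replicate block within line and without both high no-feature libraries.

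FGA, the alpha chain gene (chr4:154583126-154590766, minus strand), was at 91.3 and 52.6 CPM in Z1flag Pc and 19.1 and 71.7 CPM in Z2flag Pc, against 21.7 and 61.6 CPM in Z1flag Sc and 95.4 and 63.3 CPM in Z2flag Sc. Its groups overlapped in both lines. Its log2 fold change was 0.79 (SE 0.59, edgeR adjusted p = 0.313) in Z1flag cells and -0.81 (SE 0.59, adjusted p = 0.304) in Z2flag cells. In Z1flag cells it was -0.20 with both high no-feature libraries left out. Per kilobase of exon, FGG over FGA was 6.27 and 8.69 in Z1flag Pc and 7.05 and 9.66 in Z2flag Pc, against 1.58 and 2.63 in Z1flag Sc and 2.42 and 2.56 in Z2flag Sc. FGB over FGA was 1.17 and 0.791 in Z1flag Pc and 1.36 and 0.884 in Z2flag Pc, against 0.149 and 0.211 in Z1flag Sc and 0.18 and 0.227 in Z2flag Sc. Both ratios were higher in every Pc than in every Sc library, and the ratios were chosen for description after the values were seen and were not tested.

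**Figure D4:**
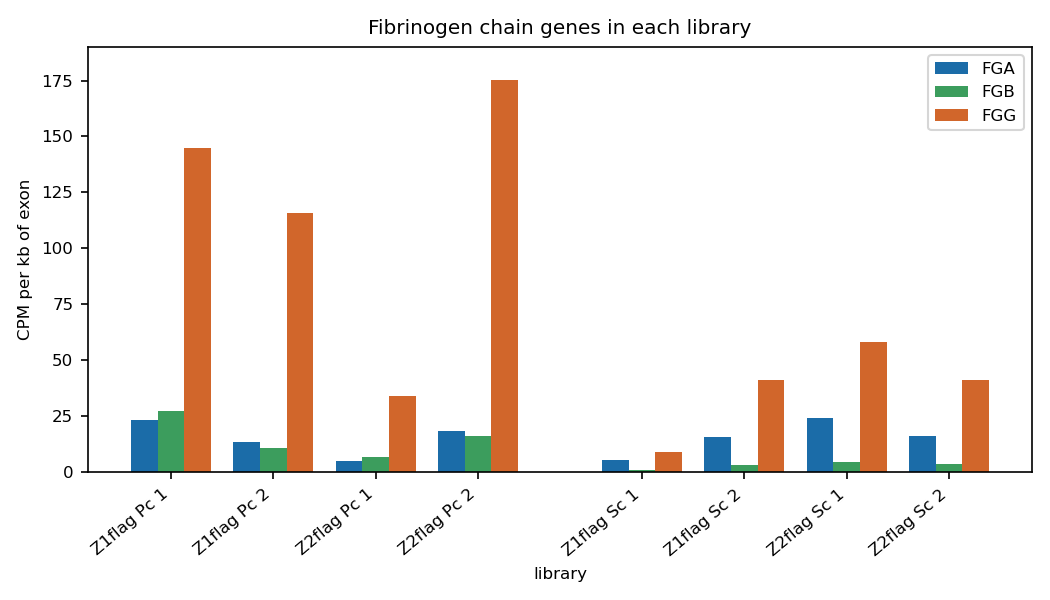
Level of FGA, FGB and FGG in CPM per kilobase of exon in each library, Pc on the left and Sc on the right. FGG leads in every library, and FGB is close to FGA in the Pc libraries but a small part of it in the Sc libraries, where FGB over FGA is 0.149 to 0.227.

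Among the remaining factors, F5, F12, PROC and HRG rose in both lines, and F10 and F13B in Z1flag cells. The log2 fold changes of F5, the factor V gene, were 2.73 and 1.86 in Z1flag and Z2flag cells (edgeR adjusted p = 0.00485 and 0.0274), and those of PROC, the protein C gene, 3.32 and 2.04 (adjusted p = 0.00155 and 0.0127). The F5 call was lost in Z1flag cells without Z1flag Sc replicate 2 (adjusted p = 0.0509) and in Z2flag cells without Z2flag Pc replicate 1, Z2flag Pc replicate 2, Z2flag Sc replicate 1 or Z2flag Sc replicate 2 (adjusted p = 0.0765 to 0.138), and the Z2flag call of PROC without Z2flag Pc replicate 2 or Z2flag Sc replicate 2 (adjusted p = 0.0924 to 0.103). F12, the factor XII gene, gave 1.13 and 1.16 (edgeR adjusted p = 0.0106 and 0.00991), calls lost in Z1flag cells without Z1flag Sc replicate 1 or Z1flag Sc replicate 2 (adjusted p = 0.0555 to 0.0865) and in Z2flag cells without Z2flag Sc replicate 1 or Z2flag Sc replicate 2 (adjusted p = 0.0726 to 0.112). Exons of GRK6 on the opposite strand overlap 14.4% of the F12 exon bases, at 7.67 times its mean count, so F12 is uncertain if strand was not used in counting. HRG, the histidine-rich glycoprotein gene, had 62 counts in Z1flag Pc against 5 in Z1flag Sc, a ratio of 13 after scaling (95% counting interval 5.30 to 41.6), and F13B, the factor XIII B subunit gene, had 78 against 6, a ratio of 13.7 (6.0 to 38.4). These and the later counting intervals pool the libraries of a group and cover counting error only. The HRG call in Z2flag cells was lost without Z2flag Sc replicate 1 (adjusted p = 0.0693), and the F13B call in Z1flag cells without Z1flag Pc replicate 1, Z1flag Sc replicate 1 or Z1flag Sc replicate 2 (adjusted p = 0.0717 to 0.151). HRG-AS1 overlaps 8.83% of the HRG exon bases on the opposite strand, at 2.76 times its mean count. F10, the factor X gene, was at 62.8 and 55.7 CPM in Z1flag Pc and 30 and 52.4 CPM in Z2flag Pc, against 10.3 and 24.7 CPM in Z1flag Sc and 28.5 and 23.1 CPM in Z2flag Sc. Its neighbour F7, the factor VII gene, 2132 bases away, was at 62.6 and 37.3 CPM in Z1flag Pc and 14.3 and 36.5 CPM in Z2flag Pc, against 14.2 and 28.8 CPM in Z1flag Sc and 35.3 and 27.8 CPM in Z2flag Sc. F10 rose by 1.76 in Z1flag cells (edgeR adjusted p = 0.00582), whereas F7 gave 1.21 there (adjusted p = 0.0542) and -0.32 in Z2flag cells (adjusted p = 0.603). The F7 value in Z1flag cells lay close to the threshold, and F7 was called higher there in other settings, DESeq2 among them.

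PROS1 (chr3:93873033-93980003, minus strand), the gene of protein S, the cofactor of activated protein C, had, with C4BPB and FGA, the lowest mean change over both lines among the members with a mean of at least 1 CPM. It was at 80.9 and 56.1 CPM in Z1flag Pc and 59.2 and 83.3 CPM in Z2flag Pc, against 43.5 and 58.2 CPM in Z1flag Sc and 66.8 and 55 CPM in Z2flag Sc, with overlap in both lines. Its log2 fold change was 0.43 (SE 0.26, edgeR adjusted p = 0.204) in Z1flag cells and 0.23 (SE 0.26, adjusted p = 0.511) in Z2flag cells.

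Of the 6 complement genes, all tested, 5 rose in Z1flag and 2 in Z2flag cells, with medians of 1.90 and 0.87 on the log2 scale. C3 (chr19:6677704-6730562, minus strand), the central component of the cascade, was at 687 and 381 CPM in Z1flag Pc and 548 and 450.4 CPM in Z2flag Pc, against 68.4 and 111 CPM in Z1flag Sc and 94.1 and 144 CPM in Z2flag Sc. All Pc libraries were above all Sc libraries. It rose by 2.58 (SE 0.35, edgeR adjusted p = 0.000608) in Z1flag and by 2.07 (SE 0.35, adjusted p = 0.00172) in Z2flag cells. CFB, factor B of the alternative pathway, which joins C3b in the C3 convertase, rose by 3.57 (SE 0.40) in Z1flag cells and 3.72 (SE 0.40) in Z2flag cells (edgeR adjusted p = 0.000285 and 0.000268). A read-through gene with 0 counts shares 45% of the CFB exon bases. C5, whose cleavage starts the lytic complex, rose by 1.43 in Z1flag cells (edgeR adjusted p = 0.00668), a call lost without Z1flag Sc replicate 1 (adjusted p = 0.0762), and gave 0.87 in Z2flag cells (adjusted p = 0.0555). CFI, the protease that inactivates C3b and C4b, had 49 counts in Z1flag Pc against 10 in Z1flag Sc, a ratio of 5.15 after scaling (95% counting interval 2.58 to 11.4), and its Z1flag call was lost without Z1flag Sc replicate 1 (adjusted p = 0.154).

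VTN (chr17:28367276-28373091, minus strand) encodes vitronectin, an adhesive protein that also binds the terminal complement complex. It was at 1076 and 826 CPM in Z1flag Pc and 1069 and 824 CPM in Z2flag Pc, against 606 and 611 CPM in Z1flag Sc and 640.0 and 676 CPM in Z2flag Sc. The groups did not overlap, but the difference was small: 0.64 (SE 0.21, edgeR adjusted p = 0.0354) in Z1flag cells and 0.52 (SE 0.21, adjusted p = 0.0767) in Z2flag cells on the log2 scale. The Z1flag call was lost without Z1flag Pc replicate 1, Z1flag Sc replicate 1, Z1flag Sc replicate 2, Z2flag Sc replicate 1 or Z2flag Sc replicate 2 (adjusted p = 0.0751 to 0.169). C4BPB (chr1:207088842-207099993, plus strand) encodes the beta chain of C4b-binding protein, which carries protein S in plasma. It was at 64.6 and 24.3 CPM in Z1flag Pc and 35.7 and 26.9 CPM in Z2flag Pc, against 48.2 and 38.9 CPM in Z1flag Sc and 37.8 and 37.7 CPM in Z2flag Sc. Z1flag Pc replicate 1 was the highest of all 8 libraries and the other 3 Pc libraries were below every Sc library. Its log2 fold change was 0.04 (SE 0.37, edgeR adjusted p = 0.948) in Z1flag cells and -0.27 (SE 0.37, adjusted p = 0.59) in Z2flag cells. Without Z1flag Pc replicate 1 the Z1flag value was -0.80 (edgeR adjusted p = 0.0229), a call of lower.

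**Figure D5:**
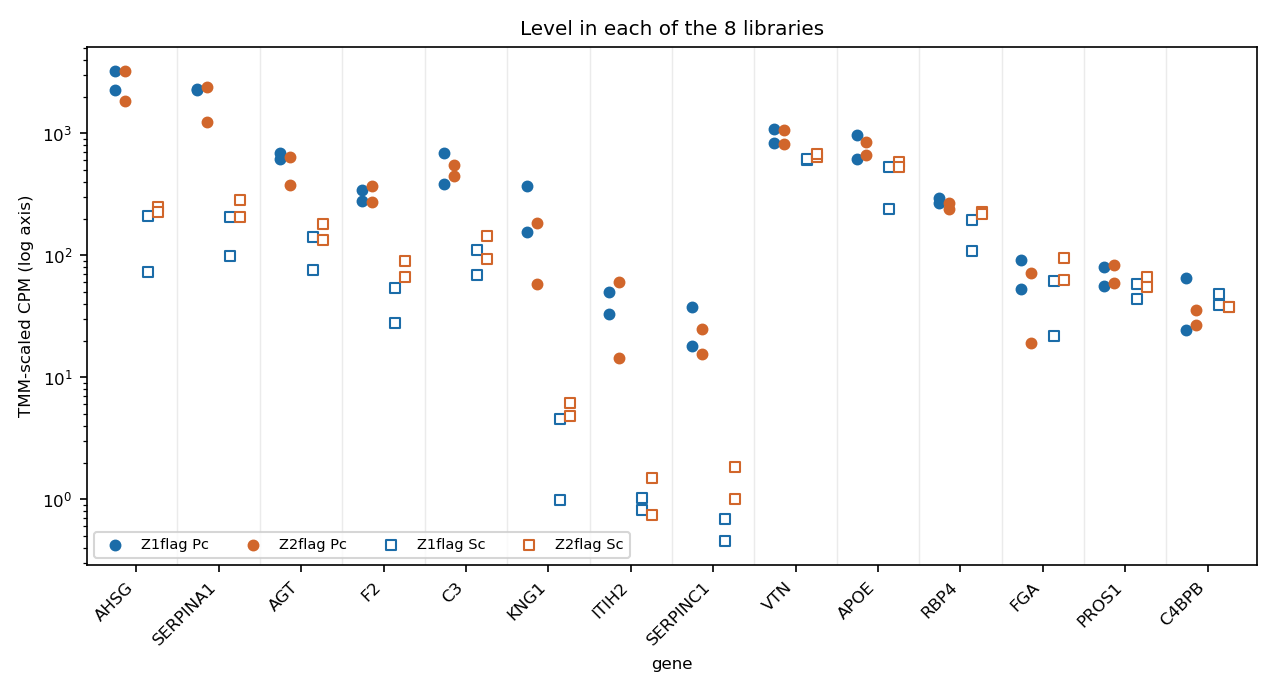
TMM-scaled CPM on a log axis of 14 genes in the 8 libraries, Pc as filled circles on the left of each column and Sc as open squares on the right, Z1flag in blue and Z2flag in orange. From AHSG to SERPINC1 the Pc circles lie clear of the Sc squares, VTN, APOE and RBP4 lie closer together, and FGA, PROS1 and C4BPB overlap.

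All 11 carrier and acute-phase genes were tested, and 10 rose in Z1flag and 5 in Z2flag cells, with medians of 2.41 and 0.66 on the log2 scale. APOE (chr19:44905754-44909393, plus strand), the apolipoprotein E gene, was at 619 and 965 CPM in Z1flag Pc and 668 and 844 CPM in Z2flag Pc, against 239 and 533 CPM in Z1flag Sc and 578 and 528 CPM in Z2flag Sc. Every Pc library was above every Sc library, with Z1flag Sc replicate 1 the lowest. The log2 fold change was 1.04 (SE 0.35, edgeR adjusted p = 0.039) in Z1flag cells and 0.45 (SE 0.35, adjusted p = 0.329) in Z2flag cells. The Z1flag call was lost without Z1flag Pc replicate 2, Z1flag Sc replicate 1, Z2flag Pc replicate 1, Z2flag Pc replicate 2, Z2flag Sc replicate 1 or Z2flag Sc replicate 2 (adjusted p = 0.0538 to 0.267). RBP4 (chr10:93591687-93601744, minus strand), the retinol-binding protein gene, was at 269 and 294 CPM in Z1flag Pc and 238 and 268 CPM in Z2flag Pc, against 108 and 194 CPM in Z1flag Sc and 228 and 216 CPM in Z2flag Sc. Its libraries were alike apart from the low Z1flag Sc replicate 1. The log2 fold change was 0.89 (SE 0.26, edgeR adjusted p = 0.0209) in Z1flag cells, lost without Z1flag Sc replicate 1 (adjusted p = 0.187), and 0.19 (SE 0.26, adjusted p = 0.592) in Z2flag cells.

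APOH (chr17:66212033-66256525, minus strand) encodes beta-2-glycoprotein I, which binds phospholipids. It was at 271 and 190.1 CPM in Z1flag Pc and 69.8 and 215 CPM in Z2flag Pc, against 30 and 88 CPM in Z1flag Sc and 107 and 82.5 CPM in Z2flag Sc. Z2flag Pc replicate 1 was again below both Z2flag Sc libraries. The log2 fold change was 1.96 (SE 0.55, edgeR adjusted p = 0.0179) in Z1flag cells, lost without Z1flag Pc replicate 1, Z1flag Pc replicate 2 or Z1flag Sc replicate 1 (adjusted p = 0.0713 to 0.127), and 0.59 (SE 0.53, adjusted p = 0.408) in Z2flag cells. TTR (chr18:31557010-31599021, plus strand), the gene of transthyretin, which carries thyroxine and, with RBP4, retinol, was at 128 and 52.1 CPM in Z1flag Pc and 56.2 and 57.7 CPM in Z2flag Pc, against 15.8 and 31.8 CPM in Z1flag Sc and 44.2 and 34.8 CPM in Z2flag Sc. Z1flag Pc replicate 1 stood far above every other library. TTR rose by 1.92 (SE 0.42, edgeR adjusted p = 0.00563) in Z1flag cells, lost without Z1flag Sc replicate 1 (adjusted p = 0.0576), and gave 0.53 (SE 0.41, adjusted p = 0.326) in Z2flag cells. TF (chr3:133745956-133796640, plus strand), the transferrin gene, was at 13.7 and 6.53 CPM in Z1flag Pc and 2.92 and 8.18 CPM in Z2flag Pc, against 0.135 and 0.42 CPM in Z1flag Sc and 0.927 and 0.647 CPM in Z2flag Sc, without overlap. It rose by 5.13 (SE 0.69, edgeR adjusted p = 0.000577) in Z1flag and by 2.80 (SE 0.59, adjusted p = 0.00515) in Z2flag cells, where the call was lost without Z2flag Sc replicate 2 (adjusted p = 0.0505).

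ALB, the albumin gene, and AFP, the gene of its fetal relative alpha-fetoprotein, lie 9725 bases apart on chromosome 4 and were both expressed. ALB was at 45.2 and 35.1 CPM in Z1flag Pc and 26.8 and 62.4 CPM in Z2flag Pc, against 1.04 and 7.18 CPM in Z1flag Sc and 14 and 6.08 CPM in Z2flag Sc. AFP was at 139.9 and 42 CPM in Z1flag Pc and 45.3 and 69.2 CPM in Z2flag Pc, against 2.16 and 8.85 CPM in Z1flag Sc and 21.2 and 9.62 CPM in Z2flag Sc. All Pc libraries of both genes were above all Sc libraries. Per kilobase of exon, AFP averaged 22.7 CPM in Pc against 3.21 in Sc, and ALB 12.5 CPM in Pc against 2.09 in Sc. ALB rose by 3.27 in Z1flag and 2.15 in Z2flag cells (edgeR adjusted p = 0.00626 and 0.0318), and AFP by 4.03 and 1.89 (adjusted p = 0.00217 and 0.0442). The Z2flag call of ALB was lost without Z1flag Pc replicate 1, Z1flag Pc replicate 2, Z2flag Pc replicate 2, Z2flag Sc replicate 1 or Z2flag Sc replicate 2 (adjusted p = 0.0699 to 0.277), and that of AFP without Z1flag Pc replicate 2, Z2flag Pc replicate 1, Z2flag Pc replicate 2, Z2flag Sc replicate 1 or Z2flag Sc replicate 2 (adjusted p = 0.0502 to 0.325). The ALB call in Z1flag cells was lost without Z1flag Pc replicate 1 (adjusted p = 0.0513).

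Among the acute-phase genes of this role, ORM1 and ORM2, near-identical neighbours that encode alpha-1-acid glycoprotein, rose in both lines. Their log2 fold changes were 4.51 and 3.21 in Z1flag and 2.43 and 1.85 in Z2flag cells, and the split between the copies is uncertain. The Z2flag call of ORM1 was lost without Z2flag Pc replicate 2, Z2flag Sc replicate 1 or Z2flag Sc replicate 2 (adjusted p = 0.0688 to 0.0959), and that of ORM2 without Z2flag Pc replicate 2 or Z2flag Sc replicate 2 (adjusted p = 0.099 to 0.15). HPX, the gene of haemopexin, the haem carrier, rose by 2.41 (edgeR adjusted p = 0.00624) in Z1flag cells, lost without Z1flag Sc replicate 1 (adjusted p = 0.0532), and gave 0.66 (adjusted p = 0.33) in Z2flag cells. HP, the haptoglobin gene, which has a close copy in HPR, stayed below 2 CPM, at 0.87 and 1.48 CPM in Z1flag Pc and 0.882 and 1.02 CPM in Z2flag Pc, against 0.18 and 0.763 CPM in Z1flag Sc and 1.62 and 1.1 CPM in Z2flag Sc. Its Pc libraries were above the Sc libraries in Z1flag cells and below them in Z2flag cells.

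Among the inter-alpha-inhibitor, cystatin-type and alpha-2-macroglobulin genes, all 7 tested rose in Z1flag and 5 in Z2flag cells, with medians of 4.28 and 3.24 on the log2 scale. AHSG (chr3:186612923-186621318, plus strand) encodes fetuin-A, a cystatin-type protein that keeps calcium phosphate in solution. It had the highest mean level of the 49 genes in Pc, per kilobase and in all, with 2249.6 and 3257 CPM in Z1flag Pc and 1857 and 3272 CPM in Z2flag Pc, against 72.6 and 210.4 CPM in Z1flag Sc and 251 and 225 CPM in Z2flag Sc. The groups were far apart. AHSG rose by 4.28 (SE 0.50, edgeR adjusted p = 0.000315) in Z1flag and by 3.43 (SE 0.48, adjusted p = 0.000767) in Z2flag cells. FETUB, its paralogue, which inhibits an egg-coat protease, follows 14650 bases downstream, HRG 7074 bases after FETUB and KNG1 39035 bases after HRG. All 4 genes of this cystatin-type cluster on chromosome 3 rose in both lines. FETUB had 140 counts in Z1flag Pc against 9 in Z1flag Sc, a ratio of 16.4 after scaling (95% counting interval 8.37 to 36.5), with a Z2flag call lost without Z2flag Pc replicate 2, Z2flag Sc replicate 1 or Z2flag Sc replicate 2 (adjusted p = 0.0571 to 0.131). HRG-AS1 overlaps 4.15% of the FETUB exon bases on the opposite strand, at 1.18 times its mean count.

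The inter-alpha-inhibitor genes encode AMBP, the source of bikunin, and heavy chains that are joined to it and stabilise hyaluronan. ITIH2 (chr10:7703269-7749520, plus strand) was at 50.1 and 33.1 CPM in Z1flag Pc and 14.3 and 60.5 CPM in Z2flag Pc, against 0.811 and 1.03 CPM in Z1flag Sc and 0.737 and 1.49 CPM in Z2flag Sc. It was below 2 CPM in every Sc library and clearly higher in every Pc library. The log2 fold change was 5.48 (SE 0.69, edgeR adjusted p = 0.000414) in Z1flag cells and 5.08 (SE 0.66, adjusted p = 0.000563) in Z2flag cells. ITIH3 (chr3:52794768-52809009, plus strand) was at 11.8 and 2.19 CPM in Z1flag Pc and 2.98 and 3.43 CPM in Z2flag Pc, against 0.0451 and 0.0763 CPM in Z1flag Sc and 0.214 and 0.0563 CPM in Z2flag Sc. In Z1flag cells these were 354 counts against 3, a ratio of 124 after scaling (95% counting interval 42.1 to 604), and edgeR's adjusted p was 0.000859 in Z1flag and 0.00304 in Z2flag cells. Its neighbour ITIH1 rose in Z1flag cells by 4.18 (edgeR adjusted p = 0.00329) and gave 1.78 in Z2flag cells (adjusted p = 0.089). ITIH4, which shares 73.6% of its exon bases with a same-strand read-through gene, reached at most 0.265 CPM in any library.

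AMBP (chr9:114060127-114078472, minus strand) was at 13.9 and 8.68 CPM in Z1flag Pc and 5.79 and 8.54 CPM in Z2flag Pc, against 0.856 and 3.17 CPM in Z1flag Sc and 4.82 and 3.43 CPM in Z2flag Sc. Its Pc libraries were all higher, by a small margin in Z2flag cells. It rose by 2.47 (SE 0.53, edgeR adjusted p = 0.005) in Z1flag cells and gave 0.79 (SE 0.50, adjusted p = 0.231) in Z2flag cells. A2M, the gene of the broad protease trap alpha-2-macroglobulin, had 435 counts in Z1flag Pc against 7 in Z1flag Sc, a ratio of 65.3 after scaling (95% counting interval 31.4 to 163). This interval leaves out the spread between the Z1flag Pc libraries, which held 406 and 29 counts. The fitted log2 fold change of A2M in Z1flag cells was 5.83 (SE 1.04, edgeR adjusted p = 0.00206). Its Pc level was 15.4 and 1.48 CPM in Z1flag and 3.25 and 3.67 CPM in Z2flag cells, so the first replicate of Z1flag stood well above the other 3. A2M changed by 3.24 in Z2flag cells (edgeR adjusted p = 0.0164), a call lost without Z2flag Pc replicate 1, Z2flag Pc replicate 2, Z2flag Sc replicate 1 or Z2flag Sc replicate 2 (adjusted p = 0.0552 to 0.112). A2M-AS1 overlaps 8.79% of its exon bases on the opposite strand, at 0.507 times its mean count.

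No gene was called for a different confluence change in the 2 lines, though the values of the plasma protein genes leaned to 1 side. The difference in log2 fold change, Z1flag minus Z2flag, was above 0 for 43 of the 45 genes, against 55.3% of all tested genes, with a median of 1.36 against 0.07 over all tested genes. This lean was present in the first replicates and absent from the second. Read from the first replicates alone, after seeing the data and with no test, the difference in log2 CPM was above 0 for 43 of the 45 genes (53.8% of all tested genes) with a median of 2.96, and from the second replicates alone for 17 (52.8%) with a median of -0.10. In the fit of all libraries the exceptions were F12 (-0.03) and CFB (-0.16). At an adjusted p under 0.05 edgeR called 0 of the 45 and 0 of all 18240 genes (0.0%), and DESeq2 also called 0. On simulated counts with 200 changed genes, the edgeR test recovered only 4% of 2-fold and 52% of 4-fold differences. At an unadjusted p under 0.05, 10 of the 45 (22.2%) and 902 of all tested genes (4.95%) differed, and the 10 were SERPINA6, SERPINC1, F7, KNG1, AFP, TF, TTR, HPX, ORM1 and AMBP. The 3 of smallest p were SERPINC1, with a difference of 1.77 (SE 0.65), TF with 2.33 (SE 0.90) and TTR with 1.39 (SE 0.58). Their unadjusted edgeR p were 0.0219, 0.0263 and 0.0358, and the adjusted p was 0.799 for each. Without Z1flag Pc replicate 2, A2M and SERPINA5 were called for this difference, as 2 of 190 genes.

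Between lines within a state, 0 of the 45 and 0 of all tested genes were called, by edgeR at an adjusted p under 0.05. In Pc the log2 level, Z1flag over Z2flag, was above 0 for 41 of the 45 genes (51.4% of all tested genes), and 3 had an unadjusted p under 0.05: SERPINA5, SERPINA6 and ITIH1 (7.17% of all tested genes). In Sc it was above 0 for 4 of the 45 (43.5% of all tested genes), and SERPINC1, F2 and HP had an unadjusted p under 0.05 (1.07% of all tested genes), each with the lower level in Z1flag cells. The median of the 45 genes was 0.66 in Pc and -0.68 in Sc. These values also rested on the first replicates, where the median log2 CPM difference was 1.53 in Pc and -1.47 in Sc, against -0.11 in Pc and -0.04 in Sc in the second replicates, which had 16 and 19 of the 45 genes above 0. Of the 45, 6 genes were called higher in Z1flag Pc without Z1flag Pc replicate 2, when 2252 of all tested genes were called in either direction.

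A list of 51 further plasma proteins, not among the 49, was examined in the same fit. For this and the lists that follow, 21.3% of all tested genes were called higher and 19.1% lower in Z1flag cells. In Z2flag cells these shares were 18.3% and 19.3%. Of its 28 tested genes 21 rose and 0 fell in Z1flag cells, and 17 rose and 2 fell in Z2flag cells, with medians of 2.91 and 2.11 on the log2 scale. CP, the gene of the copper carrier ceruloplasmin, was at 44.2 and 11.7 CPM in Z1flag Pc and 33.7 and 16.8 CPM in Z2flag Pc, against 1.31 and 0.84 CPM in Z1flag Sc and 1.88 and 1.01 CPM in Z2flag Sc. It rose by 4.71 and 4.12 in the lines on the log2 scale (edgeR adjusted p = 0.000741 in Z1flag and 0.0012 in Z2flag cells). Exons of HPS3 on the opposite strand overlap 19.4% of the CP exon bases, at 5.64 times the mean count of CP. CP is therefore uncertain if strand was not used in counting. C2, part of the classical C3 convertase, rose by 3.86 in Z1flag and 2.24 in Z2flag cells (edgeR adjusted p = 0.000325 and 0.00272). Its partner C4A, uncertain because C4B is a near-identical copy, was at 3.21 and 2.4 CPM in Z1flag Pc and 1.38 and 1.86 CPM in Z2flag Pc, against 0 and 0.0763 CPM in Z1flag Sc and 0.143 and 0.0563 CPM in Z2flag Sc, and was called higher in both lines. HABP2, a plasma hyaluronan-binding protease gene, fell by 2.13 in Z2flag cells (edgeR adjusted p = 0.0225), a call lost without Z2flag Pc replicate 1, Z2flag Pc replicate 2, Z2flag Sc replicate 1 or Z2flag Sc replicate 2 (adjusted p = 0.0511 to 0.124), and gave -0.65 in Z1flag cells. Of the 51, 27, among them F9, F11, CRP, GC and HAMP, were below 1 CPM in every library, and 9 had no count at all.

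Hepatocyte markers that are not secreted were mostly low. Of 20 such genes 10 were tested, 6 rose in Z1flag and 4 in Z2flag cells and 0 fell, and the defining genes CPS1, OTC, TAT, CYP8B1, CYP3A4, SLCO1B1 and SLCO1B3 were below 1 CPM in every library, with CYP7A1, the rate-limiting enzyme of bile acid synthesis, at 0 counts. The list summed to 50.8 to 126 CPM in the Pc libraries, against 24.9 to 49.8 CPM in the Sc libraries. ASGR1, a subunit of the asialoglycoprotein receptor that clears plasma glycoproteins, was at 38.3 and 33.1 CPM in Z1flag Pc and 13.1 and 40.8 CPM in Z2flag Pc, against 1.26 and 2.52 CPM in Z1flag Sc and 3.66 and 3.18 CPM in Z2flag Sc. It rose by 4.22 in Z1flag and 2.97 in Z2flag cells (edgeR adjusted p = 0.000411 and 0.00159), and its partner ASGR2 rose by 1.5 in Z1flag cells (adjusted p = 0.011), a call lost without Z1flag Sc replicate 1 (adjusted p = 0.0832).

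Enterocyte markers, the labelled cell type, were mostly present. Of 12 tested genes 10 rose in Z1flag and 8 in Z2flag cells, and the list of 16 summed to 1868 to 2537 CPM in Pc, against 1111 to 1483 CPM in Sc. CDX1, FABP2, TMPRSS15 and MS4A8 were below 1 CPM in every library. APOA4, an apolipoprotein of enterocytes, was at 259.6 and 209.5 CPM in Z1flag Pc and 368 and 224 CPM in Z2flag Pc, against 3.24 and 6.26 CPM in Z1flag Sc and 8.41 and 5.43 CPM in Z2flag Sc. MEP1A and ANPEP, brush-border peptidases, rose by 4.98 and 5.35 in Z1flag and 4.17 and 3.43 in Z2flag cells.

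Markers of other cell types were read in the same way. Of 5 tested fibroblast markers 1 rose and 3 fell in each line, and the list summed to 72.2 to 86.9 CPM in Pc, against 183 to 233 CPM in Sc. COL1A1 rose by 1.62 in Z1flag and 1.5 in Z2flag cells, while PDGFRA fell by 3.40 in Z1flag and fell by 3.17 in Z2flag cells. COL3A1 fell by 2.80 in Z1flag cells, a call lost without Z1flag Pc replicate 1 or Z1flag Sc replicate 2 (adjusted p = 0.0505 to 0.06), and fell by 2.79 in Z2flag cells. Leukocyte and endothelial markers summed to 16.5 to 33.5 CPM in Pc, against 10.7 to 21.4 CPM in Sc, with 4 of 5 tested genes higher in Z1flag and 1 in Z2flag cells. PTPRC, CD3E, CD68 and CDH5 were below 1 CPM in every library, COL1A2 was at 0 counts, and ITGAM and PECAM1 reached 3.10 and 21.6 CPM. The part of these markers in the change of the plasma protein genes was not tested.

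Transcription factors of the liver type did not share 1 direction. Of 20 tested factors 8 rose and 3 fell in Z1flag cells, and 4 rose and 5 fell in Z2flag cells, with medians of 0.68 and 0.22 on the log2 scale. Over all tested genes 21.3% rose and 19.1% fell in Z1flag cells, and 18.3% rose and 19.3% fell in Z2flag cells. NR1I3, the constitutive androstane receptor gene, was at 16.4 and 8.73 CPM in Z1flag Pc and 5.84 and 9.08 CPM in Z2flag Pc, against 0.18 and 0.572 CPM in Z1flag Sc and 0.499 and 0.31 CPM in Z2flag Sc. It rose by 5.01 (SE 0.56, edgeR adjusted p = 0.000267) in Z1flag and by 4.18 (SE 0.53, adjusted p = 0.000506) in Z2flag cells. On the opposite strand, exons of TOMM40L overlap 661 of the NR1I3 exon bases, at 9.05 times the mean count of NR1I3. NR1I3 is therefore uncertain if strand was not used in counting. ZHX2, known in mice as a repressor of Afp after birth, rose by 1.89 in Z1flag and 2.07 in Z2flag cells (edgeR adjusted p = 0.00143 and 0.00105). HNF4A fell by 0.91 in Z1flag cells (edgeR adjusted p = 0.0106), a call lost without Z1flag Sc replicate 1 or Z1flag Sc replicate 2 (adjusted p = 0.055 to 0.0584), and fell by 1.53 in Z2flag cells (adjusted p = 0.00106).

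The interleukin-6 pathway drives the hepatic acute phase through STAT3. Of 10 tested genes of this axis 1 rose and 3 fell in Z1flag cells, and 3 rose and 3 fell in Z2flag cells. The shares of all tested genes were 21.3% higher and 19.1% lower in Z1flag and 18.3% and 19.3% in Z2flag cells. IL6R, the ligand-binding receptor, was at 17.7 and 13.9 CPM in Z1flag Pc and 16.5 and 16.5 CPM in Z2flag Pc, against 0.36 and 0.611 CPM in Z1flag Sc and 0.808 and 0.675 CPM in Z2flag Sc, and rose by 4.99 and 4.46 on the log2 scale (edgeR adjusted p = 6.82e-05 in Z1flag and 6.42e-05 in Z2flag cells). IL6ST, the signalling subunit gp130, was at 614 and 415 CPM in Z1flag Pc and 602 and 480.3 CPM in Z2flag Pc, against 1231 and 1225 CPM in Z1flag Sc and 873 and 1156 CPM in Z2flag Sc, and fell by 1.25 in Z1flag and fell by 0.91 in Z2flag cells, where the call was lost without Z2flag Pc replicate 1, Z2flag Pc replicate 2 or Z2flag Sc replicate 2 (adjusted p = 0.0566 to 0.158). IL1R1, the interleukin-1 receptor, fell by 0.98 in Z1flag and fell by 1.41 in Z2flag cells (edgeR adjusted p = 0.00484 and 0.00103). IL6 and OSMR were below 1 CPM in every library.

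The last list held genes of plasma protein secretion and maturation. Of its 22 genes, all tested, 2 rose and 2 fell in Z1flag cells, and 6 rose and 4 fell in Z2flag cells, with medians of 0.13 and 0.20 on the log2 scale. Among all tested genes 21.3% rose and 19.1% fell in Z1flag cells, and 18.3% rose and 19.3% fell in Z2flag cells. SEC24A, a cargo receptor of COPII vesicles, rose by 0.83 in Z1flag and 1.29 in Z2flag cells (edgeR adjusted p = 0.00895 and 0.00131), a Z1flag call lost without Z1flag Sc replicate 1 or Z1flag Sc replicate 2 (adjusted p = 0.0523 to 0.0811). VKORC1, the vitamin K reductase needed to carboxylate F2, F7, F10, PROC and PROS1, rose by 1.19 in Z1flag and 1.19 in Z2flag cells (edgeR adjusted p = 0.00704 and 0.00741). Its calls were lost in Z1flag cells without Z1flag Sc replicate 1 or Z1flag Sc replicate 2 (adjusted p = 0.0509 to 0.0635) and in Z2flag cells without Z2flag Sc replicate 1 or Z2flag Sc replicate 2 (adjusted p = 0.0607 to 0.0851). Its paralogue VKORC1L1 fell by 0.73 in Z1flag cells (edgeR adjusted p = 0.0101), lost without Z1flag Sc replicate 1 (adjusted p = 0.0944), and fell by 0.56 in Z2flag cells (adjusted p = 0.0351), lost without Z1flag Sc replicate 1, Z1flag Sc replicate 2, Z2flag Pc replicate 1, Z2flag Pc replicate 2, Z2flag Sc replicate 1 or Z2flag Sc replicate 2 (adjusted p = 0.051 to 0.221). SEC24D gave 0.50 in Z1flag (edgeR adjusted p = 0.0749) and rose by 1.01 in Z2flag cells (adjusted p = 0.00441), lost without Z2flag Sc replicate 1 (adjusted p = 0.07).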

How the data were processed

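RNA from 8 libraries, 2 per group, was rRNA-depleted and sequenced paired-end with a strand-specific kit, per the labels' protocols. The values used were the whole-number counts per gene that the authors deposited. Alignment with STAR 2.5.2b to hg38, SAMtools and counting with HTSeq are named in the submitters' processing notes; for the counting, annotation, overlap mode and strand use were not stated. Symbols, lengths and coordinates came from GENCODE v29 (GRCh38) and promoters from RefSeq (GRCh38.p14).

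Rows that name no gene were left out of library sizes; reads overlapping no feature were 20.6% to 32.0% of all counted. Genes passing filterByExpr in edgeR 4.0.16 (minimum count 10, minimum total 15) were scaled by TMM and fitted with 1 mean per group (R 4.3.3, limma 3.58.1). The quasi-likelihood F test with 4 residual degrees of freedom was adjusted by Benjamini-Hochberg over all 18240 tested genes, with a threshold of 0.05. SE is the log2 fold change over the root of F, which can understate counting error at few counts. The script was tested on simulated data. DESeq2 1.42.0, RLE and upper-quartile scaling, other filters, 1 line alone, replicate blocks and leaving out each library were the alternatives. Promoters were searched in Python 3.11.15.

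Of the members, values are given for the 3 of highest CPM per kilobase of each role, the 3 largest and 3 smallest mean changes over both lines (mean of at least 1 CPM) and the 3 smallest p of the difference. Of each other list they are given for the 3 genes of smallest adjusted p of the mean change and the first in the other direction. Further genes were chosen after their values were seen. The members and lists were chosen with earlier results of these data known. Values of some single genes of the other lists are not reported here.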

Additional observations from a re-analysis of the deposited data

Results flagged for a closer look

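HP, the haptoglobin gene, lay on opposite sides in the 2 lines. Its Pc libraries, at 0.87 and 1.48 CPM, lay above its Sc libraries, at 0.18 and 0.763 CPM, in Z1flag cells, and its Pc libraries, at 0.882 and 1.02 CPM, lay below its Sc libraries, at 1.62 and 1.1 CPM, in Z2flag cells. The difference in log2 fold change, Z1flag minus Z2flag, was 1.77, with edgeR's adjusted p at 0.799, and HP has a close copy in HPR.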

How the results depend on the processing

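Leaving out 1 library at a time gave 28 to 39 genes called higher in Z1flag cells and 12 to 27 in Z2flag cells; 0 to 1 were called lower in Z1flag cells and over the mean of both lines, the 1 being C4BPB without Z1flag Pc replicate 1. Calls over all tested genes ran from 3757 to 8862 in Z1flag and from 2894 to 9108 in Z2flag cells. For the difference between the lines they ran from 0 to 190, with 0 to 2 members, and between the lines in Pc from 0 to 2252, with 0 to 6 members, each maximum without Z1flag Pc replicate 2. When both libraries with the highest no-feature share were left out, 24 members and 4865 genes were called in Z1flag cells. With no filter on low counts, 1 member (F7) and 41 genes were called for the difference, 3 members and 221 genes between lines in Pc and 2 genes in Sc. The cause was not tested.

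Over all tested genes, deviations of same-numbered libraries from their group means correlated at -0.180 to 0.178. Such correlations cannot tell whether the replicate numbers pair the libraries. With a replicate block shared over the lines, 40 members were called higher in Z1flag and 22 in Z2flag cells, and with a block within each line 34 and 20; 0 were called for the difference. A crossed replicate block in Pc, added after seeing the data, gave 1 member (SERPINA6) and 46 genes.

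These values turned direction, and of them C4BPB without Z1flag Pc replicate 1 was called. C4BPB in Z1flag cells gave -0.0163 with DESeq2, -0.0502 with no filter, -0.0581 and -0.12 with the block shared and within line, -0.64 without both libraries of highest no-feature share, and -0.80 to 0.56 over the leave-outs. Without both those libraries FGA gave -0.20 and PROS1 -0.021 in Z1flag cells. SERPING1 gave -0.0239 in Z2flag cells with the block within line. Over the leave-outs in Z2flag cells SERPING1 ran from -0.75 to 0.71, FGG from -0.45 to 1.91, F7 from -1.05 to 0.29, C4BPB from -0.40 to 0.0089, HPX from -0.20 to 1.32, APOH from -0.35 to 1.27 and PECAM1 from -0.38 to 0.88, and HABP2 in Z1flag cells ran from -1.65 to 0.38. Upper-quartile scaling shifted the median mean change of all genes to 0.18, against -0.01 with TMM, and left 40 members higher in Z1flag cells.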
